A study of Homo sapiens with 8 samples.

Results

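Expression of 10 genes that ERK signalling induces, the feedback inhibitors DUSP4, DUSP5, DUSP6, SPRY2, SPRY4, SPRED1 and SPRED2 and the output genes ETV4, ETV5 and PHLDA1, was followed in ES2 ovarian cancer cells. The genes were chosen by name, as transcripts used to read ERK activity, with earlier results of these data known. All 10 were found among the 23228 genes listed. ES2 is a human ovarian cancer line, known to carry an activating mutation of the kinase gene BRAF. RNA sequencing covered 8 libraries in 4 groups of 2. The groups were ES2 control cells with vehicle, ES2 control cells with LY500307, KDM1A knockout ES2 cells with vehicle and KDM1A knockout ES2 cells with LY500307, each for 48 h. KDM1A (LSD1) is a histone demethylase, and LY500307 is an agonist of oestrogen receptor beta, given at 5 µM. The sources used here do not say whether the knockout cells are 1 clone or a pool, and an effect of losing KDM1A cannot be told apart from anything else that sets the edited cells aside. Separate cultures are not stated for the duplicates either, so the spread that p-values measure may be a technical one.

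Growth factor receptors activate RAS, which switches on the kinases RAF, MEK and ERK in turn. ERK then raises transcription of genes whose products act back on the pathway. DUSP4, DUSP5 and DUSP6 are phosphatases that remove phosphate from ERK and related kinases, with DUSP4 and DUSP5 in the nucleus and DUSP6 mainly in the cytoplasm. Sprouty proteins (SPRY2, SPRY4) dampen signalling between receptors and RAF, and SPRED1 and SPRED2 bring the RAS inactivator neurofibromin to the membrane. ETV4 and ETV5 are closely related transcription factors of the ETS family, and PHLDA1 is a pleckstrin homology-like protein whose transcript follows ERK activity.

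Promoter windows from RefSeq (GRCh38.p14) were matched by symbol for 6 of the 10 genes, taking the start farthest upstream. The 250 bases before that start are shown for SPRY2 and SPRED1, which had the largest falls in knockout cells, for SPRY4, which had the largest change with LY500307, and for PHLDA1, which was higher in knockout cells. They lie at chr13:80341127-80341376 (minus strand), chr15:38252586-38252835 (plus strand), chr5:142324248-142324497 (minus strand) and chr12:76031777-76032026 (minus strand). They read 5′ to 3′ on the gene's strand, with matches to the ETS letters CCGGAA on either strand in capitals.
SPRY2: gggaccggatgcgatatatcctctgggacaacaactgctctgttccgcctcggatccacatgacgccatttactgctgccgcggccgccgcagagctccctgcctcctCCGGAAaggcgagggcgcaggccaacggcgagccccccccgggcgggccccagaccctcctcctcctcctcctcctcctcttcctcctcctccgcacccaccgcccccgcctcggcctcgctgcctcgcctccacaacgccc
SPRED1: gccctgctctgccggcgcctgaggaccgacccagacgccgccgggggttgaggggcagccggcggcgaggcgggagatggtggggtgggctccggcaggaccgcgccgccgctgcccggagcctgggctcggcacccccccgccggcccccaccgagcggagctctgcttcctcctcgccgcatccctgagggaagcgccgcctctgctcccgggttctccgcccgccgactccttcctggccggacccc
SPRY4: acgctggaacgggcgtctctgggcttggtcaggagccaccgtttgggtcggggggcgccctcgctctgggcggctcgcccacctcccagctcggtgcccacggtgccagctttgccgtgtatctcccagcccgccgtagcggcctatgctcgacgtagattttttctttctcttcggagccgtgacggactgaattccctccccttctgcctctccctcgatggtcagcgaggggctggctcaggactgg
PHLDA1: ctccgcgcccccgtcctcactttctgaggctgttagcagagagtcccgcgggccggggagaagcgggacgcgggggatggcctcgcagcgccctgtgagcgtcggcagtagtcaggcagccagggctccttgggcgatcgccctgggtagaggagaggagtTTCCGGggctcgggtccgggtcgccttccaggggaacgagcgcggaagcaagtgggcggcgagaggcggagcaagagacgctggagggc
The letters searched on both strands were CCGGAA for an ETS site, TGANTCA for an AP-1 site and TGACGTCA for a cyclic AMP response element. No matches overlapped. The letters CCGGAA were found in SPRY2, 142 bases before the start, and in PHLDA1, 89 bases before it. These are 2 of 6 windows, against 14.5% of all 35116 windows of that length. The shorter GGAA was not searched for, and the printed SPRED1 and SPRY4 windows do hold it on one strand or the other. The AP-1 and cyclic AMP letters, held by 6.57% and 1.65% of all windows, were not in any of the 6. A match is a description of the letters and not a binding site. SPRY2 and PHLDA1, which share the ETS letters, moved in opposite directions in knockout cells.

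Each library held 24348937 to 30131097 counts in genes, and levels are given as CPM, read counts normalised to the TMM-scaled library size. The 4 control libraries had KDM1A levels of 219 to 241 CPM and the 4 knockout libraries levels of 71.6 to 77.8 CPM, so KDM1A transcript remained in every library labelled knockout. ESR2, the gene of oestrogen receptor beta, had 8 to 12 counts per group. Of 9 epithelial markers, KRT7 (257 ± 6.8 CPM) and KRT18 (327 ± 9.4 CPM) were abundant in vehicle-treated control cells, while the ovarian markers PAX8 (1.98 ± 0.45 CPM) and WT1 (1.75 ± 0.24 CPM) were low. Summed over the 9, the range was 616 to 620 CPM in vehicle-treated control, 541 to 549 in vehicle-treated knockout, 728 to 739 in LY500307-treated control and 513 to 519 CPM in LY500307-treated knockout libraries. These sums hid opposite movements. With vehicle, KRT18 went from 327 in control to 161 CPM in knockout cells and KRT8 from 27.2 to 7.44 CPM. KRT7 went from 257 to 364, PAX8 from 1.98 to 5.90 and WT1 from 1.75 to 5.22 CPM. Of the 8 tested, 3 were called higher and 3 lower. The 8 haematopoietic markers, 2 of them without a count in any library, summed to values that ranged from 96.9 to 100.4 CPM in vehicle-treated control and from 63.7 to 64.3 CPM in vehicle-treated knockout libraries, nearly all of it CD68, with the defining marker PTPRC at means of 0.0213 and 0.0405 CPM. With LY500307 these sums ranged from 111 to 112 and from 63.0 to 75.6 CPM. The 7 endothelial markers summed to 102.7 and 105.5 CPM in vehicle-treated control and to 32.9 CPM in both vehicle-treated knockout libraries, nearly all CDH5, with PECAM1 at means of 0.0853 and 0.0669 CPM. With LY500307 they ranged from 83.1 to 88.6 and from 26.7 to 31.8 CPM. The 9 mesothelial and fibroblast markers ranged from 43.1 to 44.3 and from 26.8 to 28.8 CPM with vehicle and from 49.9 to 50.3 and from 28.3 to 30.0 CPM with LY500307. Within them THY1 went from 33.5 ± 3.3 CPM in vehicle-treated control to 0.0775 ± 0.062 CPM in vehicle-treated knockout cells, while FAP went from 8.53 ± 2.2 to 25.7 ± 0.84 CPM and LUM from 0.0426 to 1.48 CPM. Replicate 2 of vehicle-treated control cells held more EPCAM (2.13 CPM, against 0.419 to 0.853 CPM in the other libraries), CDH1 (1.32 against 0.280 to 0.487 CPM) and KRT19 (1.58 against 0.562 to 0.850 CPM). The part of these markers in the results below was not tested.

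**Figure D1:**
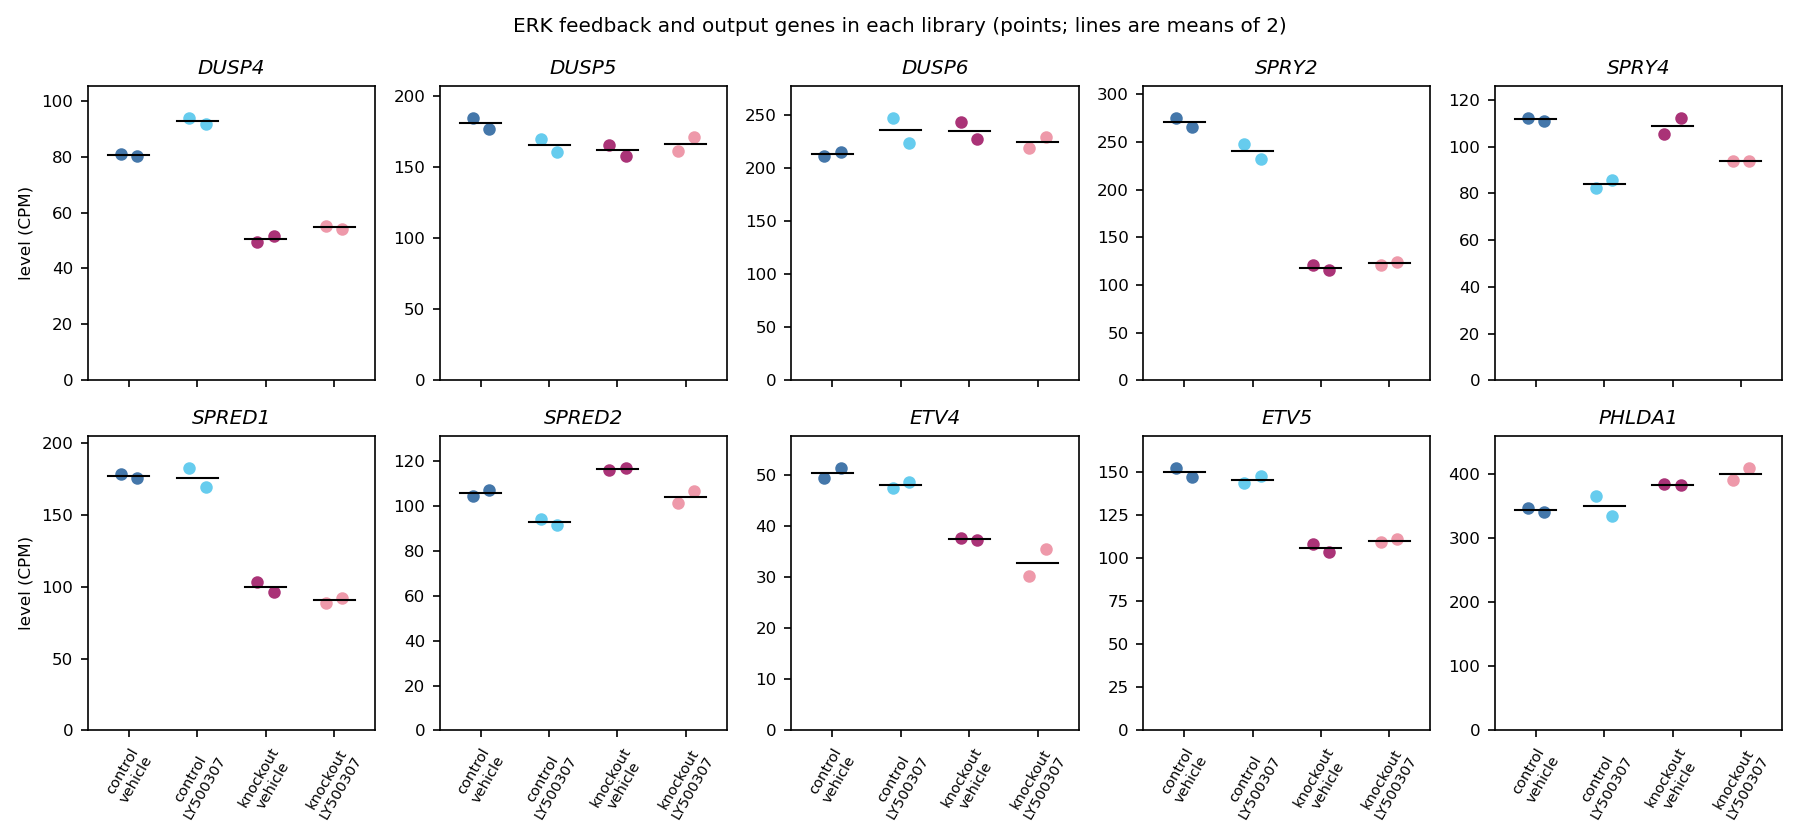
Level in CPM (vertical axes, from 0) of each gene in the 2 libraries of each group (points), with group means as lines. SPRY2, SPRED1, DUSP4, ETV4 and ETV5 lie lower in all 4 knockout libraries than in all 4 control libraries, and SPRY4 lies lower with LY500307.

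Per kilobase of annotated exon, SPRY2 had the highest level of the 10 in vehicle-treated control cells, at 84.2 ± 2.3 CPM per kb (SD, n = 2). DUSP5 (71.4 ± 2.2), PHLDA1 (58.2 ± 0.73) and DUSP6 (55.4 ± 0.76 CPM per kb) followed, and the libraries of these neighbours did not overlap. ETV5 (25.9 ± 0.63), SPRED1 (22.9 ± 0.24), SPRED2 (19.2 ± 0.32), SPRY4 (17.0 ± 0.17), ETV4 (14.3 ± 0.42) and DUSP4 (11.1 ± 0.060 CPM per kb) formed the lower range. In vehicle-treated knockout cells PHLDA1 (65.0 ± 0.19), DUSP5 (63.8 ± 2.1) and DUSP6 (61.1 ± 3.1 CPM per kb) stood above SPRY2 (36.8 ± 1.3 CPM per kb). The libraries of DUSP5 overlapped with those of DUSP6 and of PHLDA1, while those of PHLDA1 lay above those of DUSP6. Exon length is the union over annotated transcripts, so the order between genes is approximate.

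In KDM1A knockout cells part of the feedback set was lower. With vehicle, 6 of the 10 genes fell and 3 rose in knockout cells, against a background of 64.0% of 13498 tested genes called in either direction (30.7% higher and 33.3% lower). SPRY2, SPRED1, DUSP4, ETV5 and ETV4 fell with log2 fold changes between -1.19 and -0.43, and DUSP5 fell by 0.16 on the log2 scale. PHLDA1, DUSP6 and SPRED2 rose by 0.16, 0.14 and 0.14. The median over the 10 genes was -0.29, against -0.01 over all genes tested, and knockout and control libraries did not overlap for 9 of the 10 (81.3% of all genes tested). Calls are by the quasi-likelihood test of edgeR at an adjusted p of 0.05, with the Benjamini-Hochberg method applied across every gene tested.

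**Figure D2:**
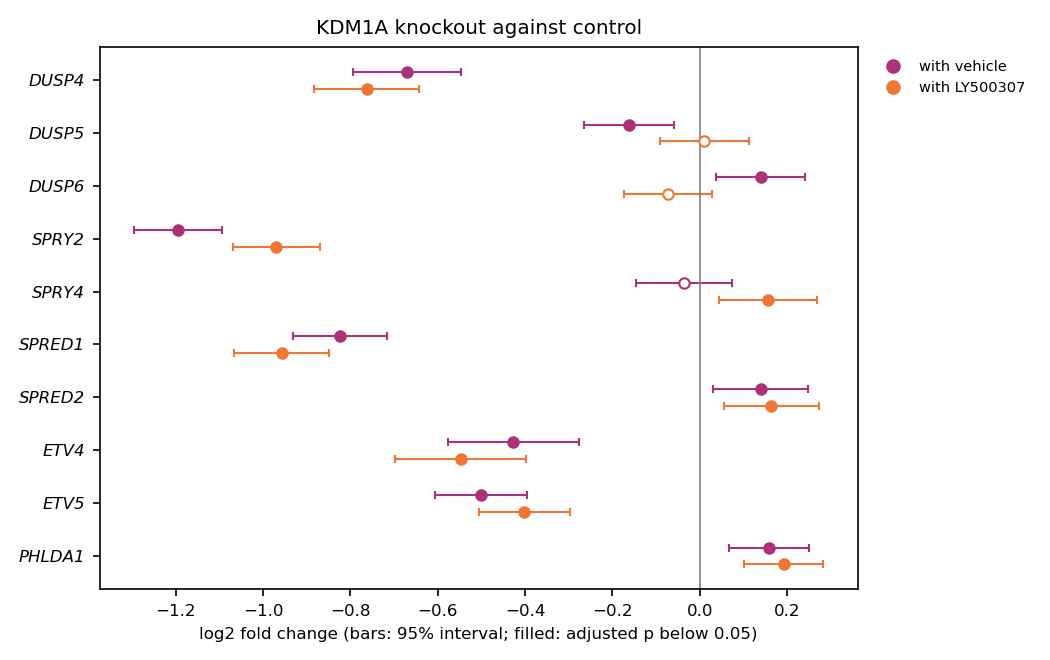
Log2 fold change of knockout against control cells (horizontal axis) for each gene, with vehicle and with LY500307; bars are 95% intervals from the fit and filled points have an adjusted p below 0.05. SPRY2, SPRED1, DUSP4, ETV4 and ETV5 lie left of 0 under both treatments, from -1.19 to -0.40.

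Among the phosphatases, DUSP4 (hg19 chromosome 8, 29190581 to 29208201) had 80.8 and 80.2 CPM with vehicle in control libraries, against 49.5 and 51.7 CPM in knockout libraries. With LY500307 its values were 94.0 and 91.9 CPM in control and 55.3 and 54.3 CPM in knockout libraries. Each knockout library was below each control library. The log2 fold changes were -0.67 (SE 0.061, edgeR adjusted p = 9.30e-12) with vehicle and -0.76 (SE 0.059, adjusted p = 1.71e-13) with LY500307. DUSP5 (chromosome 10, 112257665 to 112271291) stood at 185 and 177 CPM in control and 165 and 158 CPM in knockout libraries with vehicle, and at 170 and 160 against 161 and 171 CPM with LY500307. Its vehicle libraries did not overlap while those with LY500307 did, and its fall with vehicle (edgeR adjusted p = 0.00568) was lost without vehicle-treated control replicate 1 (adjusted p = 0.0758) or knockout replicate 2 (0.0811). DUSP6 (chromosome 12, 89741012 to 89746278) stood at 212 and 216 CPM in control and 244 and 227 CPM in knockout libraries with vehicle, and at 248 and 224 against 219 and 229 CPM with LY500307. Its rise with vehicle of 0.14 (edgeR adjusted p = 0.0156) was lost without vehicle-treated control replicate 1 (adjusted p = 0.088) or knockout replicate 1 (adjusted p = 0.221, log2 fold change 0.09). With LY500307 the DUSP6 value of -0.07 did not pass (adjusted p = 0.200), but passed at -0.14 without LY500307-treated control replicate 2 (0.0358). Of the exon bases of DUSP6, 28.6% are overlapped by an unnamed antisense RNA gene, and reads of the 2 cannot be told apart because the sources used here do not state whether counting used strand.

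Sprouty and SPRED genes split within each family. SPRY2 (chromosome 13, 80910111 to 80915261) had 276 and 265 CPM in control and 121 and 115 CPM in knockout libraries with vehicle, a log2 fold change of -1.19 (SE 0.050, edgeR adjusted p = 4.91e-21). With LY500307 it had 248 and 232 CPM against 121 and 124 CPM, a log2 fold change of -0.97 (SE 0.049, adjusted p = 1.69e-18). With vehicle SPRY2 fell by 56.3%, the largest change among the 10 genes. With LY500307 the values of SPRY2 and SPRED1 lay within their standard errors of each other. SPRY4 (chromosome 5, 141689992 to 141706020) had 112 and 111 CPM in control and 105 and 112 CPM in knockout libraries with vehicle, which overlap. The difference of -0.04 did not pass (edgeR adjusted p = 0.578), with a 95% interval from -0.15 to 0.07. With LY500307 SPRY4 had 82.3 and 85.9 CPM in control and 93.9 and 93.7 CPM in knockout libraries. This rise of 0.16 (edgeR adjusted p = 0.0128) was lost without control replicate 1 (0.122) or knockout replicate 1 (0.0572) of the LY500307 groups.

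SPRED1 (chromosome 15, 38545037 to 38649450) had 179 and 176 CPM in control and 104 and 96.7 CPM in knockout libraries with vehicle, a log2 fold change of -0.82 (SE 0.053, edgeR adjusted p = 1.47e-15). With LY500307 it had 183 and 169 CPM against 88.9 and 92.5 CPM, a log2 fold change of -0.96 (SE 0.053, adjusted p = 2.10e-17). SPRED2 (chromosome 2, 65537985 to 65659771), whose protein has the same known role, went the other way. It had 105 and 107 CPM against 116 and 117 CPM with vehicle, and 94.4 and 91.7 CPM against 101 and 107 CPM with LY500307. Its rises were 0.14 (edgeR adjusted p = 0.0232) and 0.16 (0.00806). Without 1 library they stayed between 0.12 and 0.16 with vehicle and between 0.12 and 0.19 with LY500307, but the calls were not kept. With vehicle the call was lost without control replicate 1 (0.125), knockout replicate 1 (0.0636) or knockout replicate 2 (0.106), and with LY500307 without control replicate 2 (0.0699) or knockout replicate 2 (0.105). Set against each other per exon length, SPRED1 over SPRED2 was 1.21 and 1.17 in vehicle-treated control and 0.635 and 0.586 in vehicle-treated knockout libraries. SPRY2 over SPRY4 was 5.00 and 4.89 in the same control and 2.35 and 2.10 in the same knockout libraries. These pairings were chosen after the values were seen.

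Of the output genes, ETV4 (chromosome 17, 41605212 to 41656988) had 49.2 and 51.3 CPM in control and 37.5 and 37.3 CPM in knockout libraries with vehicle, a log2 fold change of -0.43 (SE 0.074, edgeR adjusted p = 5.98e-06). With LY500307 it had 47.4 and 48.6 CPM against 30.1 and 35.4 CPM (-0.55, SE 0.074, edgeR adjusted p = 6.47e-08). ETV5 (chromosome 3, 185764103 to 185828107) had 152 and 147 CPM against 108 and 103 CPM with vehicle (-0.50, SE 0.052, edgeR adjusted p = 1.95e-10) and 143 and 147 CPM against 109 and 111 CPM with LY500307 (-0.40, SE 0.051, adjusted p = 1.83e-08). Both factors were thus lower in each knockout library. PHLDA1 (chromosome 12, 76419227 to 76425556) was the most abundant of the 10 in CPM and was higher in knockout cells. It had 347 and 341 CPM against 385 and 383 CPM with vehicle (0.16, SE 0.045, edgeR adjusted p = 0.00275) and 366 and 335 CPM against 391 and 410 CPM with LY500307 (0.19, SE 0.045, adjusted p = 0.000360). An antisense RNA gene overlaps 9.35% of its exon bases.

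With LY500307, 5 of the 10 genes were lower and 3 higher in knockout cells, against 66.2% of all genes tested called in that comparison (32.6% higher and 33.6% lower). Called under both treatments were the falls of SPRY2, SPRED1, DUSP4, ETV4 and ETV5 and the rises of PHLDA1 and SPRED2. Those of the first 6 kept their calls without any 1 library of the groups compared. Median log2 fold changes differed between chromosome arms. The arm 13q, which carries SPRY2, had a median log2 fold change of -0.38 with vehicle, 15q with SPRED1 one of -0.25, 8p with DUSP4 one of -0.24, 3q with ETV5 one of -0.20 and 17q with ETV4 one of -0.18. With arm medians removed the vehicle values of DUSP4, ETV4 and ETV5 were -0.43, -0.25 and -0.30 and that of SPRED2 0.26. With the arm medians of the LY500307 comparison removed, SPRY2, SPRED1, ETV4 and ETV5 were at -0.61, -0.72, -0.35 and -0.26, and SPRY4 and SPRED2 at 0.30 and 0.23. SPRED1 then stood below SPRY2. Each of these passed. The part of arm-wide differences in the results was not tested further.

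With LY500307 the changes were smaller, and that of SPRY4 was the largest. In control cells 3 of the 10 genes fell (SPRY4, SPRED2 and SPRY2) and 2 rose (DUSP4 and DUSP6), against 26.3% of all genes tested called (12.3% higher and 14.0% lower). Scaled by library totals in place of TMM, 2831 of all genes were higher and 1011 lower (against 1665 and 1885), and SPRY2 (-0.10) and SPRED2 (-0.11) did not pass (adjusted p = 0.118 for each, by edgeR). In knockout cells SPRY4 and SPRED2 fell, 2 of 10 against a background of 20.4% called (9.16% higher and 11.3% lower). There, library totals gave 2288 of all genes higher and 953 lower (against 1237 and 1522). With that scaling DUSP4 (0.17, edgeR adjusted p = 0.0362) and PHLDA1 (0.12, 0.0479) rose and SPRED2 did not pass (0.165), while SPRY4 fell. The median over the 10 genes was -0.05 in control and -0.01 in knockout cells, against 0.01 over all genes tested in each. Libraries with and without LY500307 did not overlap for 7 of the 10 genes in control cells and for 7 in knockout cells, against 63.1% and 58.4% of all genes tested.

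**Figure D3:**
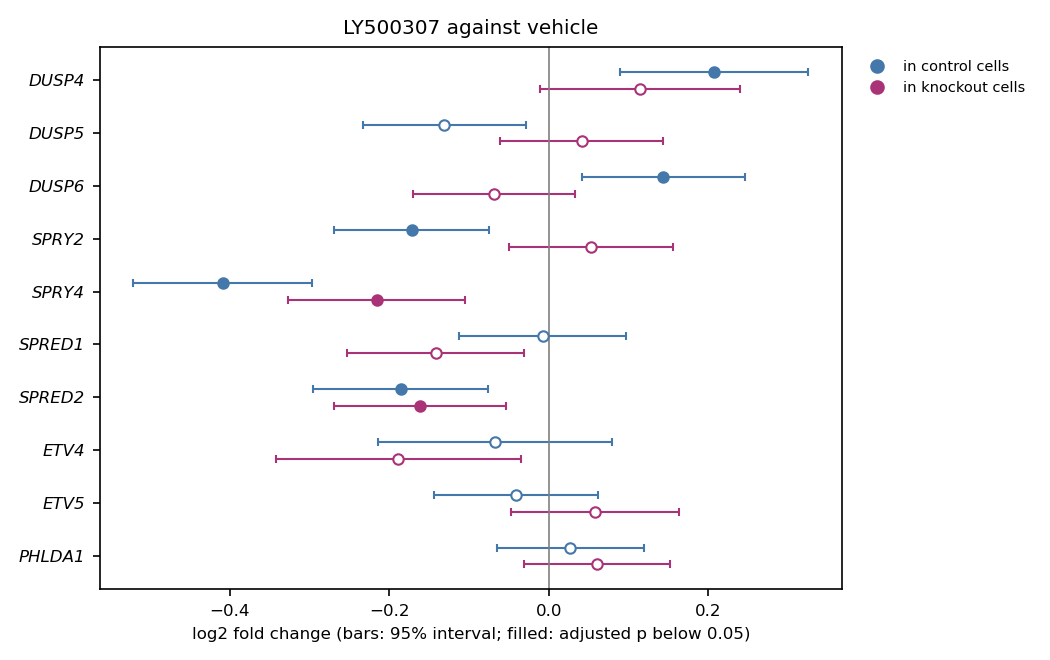
Log2 fold change of LY500307 against vehicle (horizontal axis) for each gene in control and in knockout cells; bars are 95% intervals from the fit and filled points have an adjusted p below 0.05. SPRY4 lies farthest from 0, at -0.41 in control and -0.22 in knockout cells.

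SPRY4 went from 112 and 111 CPM to 82.3 and 85.9 CPM in control cells, a log2 fold change of -0.41 (SE 0.055, edgeR adjusted p = 1.20e-06). In knockout cells it went from 105 and 112 CPM to 93.9 and 93.7 CPM, a log2 fold change of -0.22 (SE 0.055, adjusted p = 0.00412). All 4 libraries with LY500307 were below all 4 with vehicle. The call in control cells was kept without any 1 of its libraries, and that in knockout cells was lost without vehicle-treated knockout replicate 2 (adjusted p = 0.115). SPRED2 fell by 0.19 (SE 0.054, edgeR adjusted p = 0.0105) in control and by 0.16 (SE 0.053, adjusted p = 0.0275) in knockout cells. In control cells SPRY2 fell by 0.17 (SE 0.048, edgeR adjusted p = 0.00746), while DUSP4 rose by 0.21 (SE 0.058, adjusted p = 0.00783) and DUSP6 by 0.14 (SE 0.050, adjusted p = 0.0328).

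The values behind these smaller calls kept their signs without any 1 library. In control cells DUSP4 stayed between 0.19 and 0.22, DUSP6 between 0.07 and 0.21, SPRY2 between -0.22 and -0.13 and SPRED2 between -0.21 and -0.17. SPRED2 in knockout cells stayed between -0.21 and -0.14. The calls themselves were lost without single libraries, in fits with fewer libraries. In control cells that of SPRED2 was lost without vehicle replicate 2 (0.0832) or LY500307 replicate 2 (0.0894), and that of SPRY2 without vehicle replicate 1 (0.0938) or LY500307 replicate 2 (0.137), as edgeR adjusted p. That of DUSP4 was lost without vehicle replicate 2 (0.0586) or LY500307 replicate 1 (0.0722), and that of DUSP6 without vehicle replicate 1 (0.159), vehicle replicate 2 (0.0855) or LY500307 replicate 1 (0.473, log2 fold change 0.07). In knockout cells that of SPRED2 was lost without vehicle replicate 1 (0.0893), vehicle replicate 2 (0.154) or LY500307 replicate 1 (0.164). ETV5 and PHLDA1 did not pass with TMM scaling in either population, with values of -0.04 and 0.03 in control and 0.06 and 0.06 in knockout cells. SPRED1 stood at -0.01 in control and -0.14 in knockout cells (edgeR adjusted p = 0.0620), ETV4 at -0.07 and -0.19 (0.0743 in knockout), and DUSP5 at -0.13 (adjusted p = 0.0518) and 0.04. DUSP5 in control cells passed with arm medians removed (edgeR adjusted p = 0.0260) and in a fit of only the 4 libraries compared (0.0331). SPRED1 in knockout cells passed with DESeq2 size factors (0.0491), with no filter on low counts (0.0448) and with the comparison's own arm medians removed (0.0328). ETV4 in knockout cells passed at -0.32 without LY500307 replicate 2 (0.0105).

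Whether the response to LY500307 differed between knockout and control cells was tested as the interaction. None of the 10 genes passed by edgeR's quasi-likelihood test or by DESeq2, against 1.62% of all genes tested by edgeR (0.526% higher and 1.09% lower), and 4 had an unadjusted p under 0.05. SPRY2 differed most, by 0.22 (95% interval 0.08 to 0.37, edgeR adjusted p = 0.0924), with LY500307 responses of -0.17 in control and 0.05 in knockout cells. DUSP6 differed by -0.21 (-0.36 to -0.07, adjusted p = 0.124), SPRY4 by 0.19 (0.04 to 0.35, adjusted p = 0.221) and DUSP5 by 0.17 (0.03 to 0.32, adjusted p = 0.239). For the other 6 genes the values lay between -0.13 and 0.10. A weaker fall of SPRY4 in knockout cells was therefore not established at this number of libraries.

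The other genes of the pathway were taken from 6 lists ordered by role, with 78 genes listed and 71 tested. Knockout against control cells with vehicle is described here, where 64.0% of all genes tested were called. Receptor tyrosine kinases were mostly lower, 8 of 11 tested lower and 1 higher, with a median log2 fold change of -1.10. Several had low counts, such as FGFR4 with 28 counts in control and 15 in knockout cells, so that median is a rough size. The more abundant AXL fell from 856 to 505 CPM and MET from 354 to 257 CPM, while IGF1R rose from 34.6 to 55.0 CPM. PDGFRA, a receptor for platelet-derived growth factor, fell from 64.9 ± 0.20 to 12.9 ± 0.14 CPM, the fibroblast growth factor receptor FGFR1 from 133 ± 6.0 to 38.9 ± 1.6 CPM and the epidermal growth factor receptor EGFR from 261 ± 2.8 to 136 ± 4.3 CPM. Adaptors and exchange factors went both ways, 3 higher and 3 lower of 10 (median 0.05), with the RAS activator SOS2 at 0.72 and the adaptors SHC1 and GRB2 at -0.37 and -0.24. GRB2 did not pass with arm medians removed (-0.06, edgeR adjusted p = 0.316). RAS proteins and their GTPase-activating proteins were higher in 3 and lower in 5 of 11 (median -0.17). RASAL2 rose by 1.13, while RASA1 and HRAS changed by -0.58 and -0.54.

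Kinases and scaffolds from RAF to ERK had 7 higher and 5 lower of 14, with a median of 0.07. The MEK genes went apart, MAP2K2 at 0.58 and MAP2K1 at -0.33 (edgeR adjusted p = 4.33e-10 and 2.13e-06), and ARAF was at 0.49. The ERK-activated kinase RPS6KA1 rose by 0.75. MAP2K1 is named outside the rule for naming genes, a choice made with its value known. Other feedback regulators were higher in 3 and lower in 5 of 12, with a median of -0.23 that was the same with DUSP2 at its lower bound. DUSP10, a phosphatase of the stress kinases p38 and JNK, rose from 6.61 ± 0.79 to 28.0 ± 0.82 CPM. DUSP2 had no count in vehicle-treated control and 109 counts in vehicle-treated knockout libraries, at least 31.2-fold higher against a floor of 3 counts over the group. SPRY1, another Sprouty gene at a low level, fell from 8.36 ± 0.67 to 3.47 ± 0.15 CPM, the same direction as SPRY2.

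**Figure D4:**
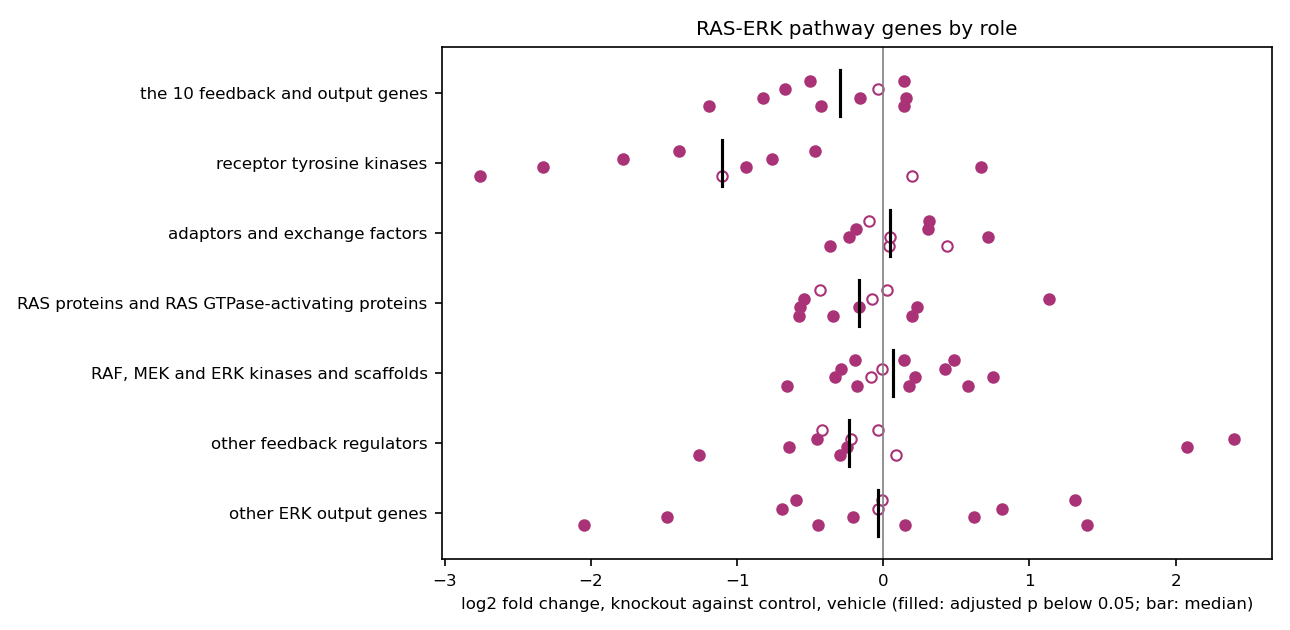
Log2 fold change of knockout against control cells with vehicle (horizontal axis) for the genes tested of each role (rows); filled points have an adjusted p below 0.05 and bars are medians over all tested genes of the row. DUSP2 and KIT, with at most 1 count in a group, are left out as points. The receptor row lies farthest left, with a median of -1.10 over genes that include some with low counts.

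Other ERK output genes had 5 higher and 6 lower of 13, with a median of -0.04, so they did not move as a block. HBEGF, a ligand of EGFR, fell from 145 ± 2.3 to 35.2 ± 1.8 CPM and the chromatin protein HMGA2 from 374 ± 18 to 134 ± 2.3 CPM, while the ephrin receptor EPHA4 rose from 61.9 ± 2.2 to 153 ± 0.88 CPM. The immediate early genes FOS and EGR1, which respond to ERK within minutes to hours, rose by 1.39 and 0.81 (edgeR adjusted p = 1.03e-09 and 6.51e-12). They are named after their values were seen, because they rose in the cells in which SPRY2, DUSP4 and the ETV genes fell. Also called lower in this list were CCND1 (-0.60), PLAUR (-0.69), EPHA2 (-0.45) and ETV1 (-0.20). IER3 (0.62) and MYC (0.15) were called higher, while FOSL1 (-0.04) and LIF (-0.01) did not pass. These too are named outside the rule, with their values known. With vehicle, FOS had 3.32 and 2.94 CPM in control against 7.86 and 8.56 CPM in knockout libraries, and EGR1 had 44.1 and 44.2 against 71.9 and 82.6 CPM.

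Under LY500307 the list counts stand against 12.3% of all genes tested higher and 14.0% lower in control cells, and 9.16% higher and 11.3% lower in knockout cells. In control cells receptor tyrosine kinases were higher in 5 and lower in 1 of 11 (median 0.21), with PDGFRA at 0.38, PDGFRB at 1.69 and MET at 0.20. PDGFRB was at a low level there, with 0.896 CPM under vehicle and 2.89 CPM under LY500307. Other feedback regulators were higher in 5 and lower in 1 of 12 (median 0.19), with DUSP10 at 0.54 and DUSP1 at 0.36 against DUSP7 at -0.36. DUSP1 rose in knockout cells as well, from 82.6 ± 1.4 to 115 ± 1.0 CPM (0.47, SE 0.054, edgeR adjusted p = 7.85e-08). In knockout cells 4 of the 12 feedback regulators rose (median 0.08), with DUSP10 at 0.78 and IL17RD, a membrane inhibitor of the pathway, at 0.43. Other ERK output genes were higher in 2 and lower in 4 of 13 in control cells and higher in 5 and lower in 3 in knockout cells (medians -0.03 and -0.04), with IER3 at 0.35 in each and EPHA4 at -0.41 and -0.38. In control cells SPRY4, SPRED2, SPRY2 and DUSP7 were thus called lower, and DUSP1, DUSP10, DUSP4 and DUSP6 higher. DUSP5 (-0.13) and SPRED1 (-0.01) did not pass. As given above, the calls of SPRED2, SPRY2, DUSP4 and DUSP6 were lost without single libraries. Those of SPRY2 and SPRED2 were also lost with library totals.

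The gene most like each member across the 8 libraries was sought among 9582 others, by the root mean square distance between log2 levels centred on each gene's own mean. For SPRY2 it was PLOD2, a collagen lysine hydroxylase, at a distance of 0.039 log2 units, where SPRY2 itself varied by 0.54 about its mean. For SPRED1 it was the sodium pump subunit ATP1B1 (0.038) and for DUSP4 the chaperone DNAJB6 (0.035). For ETV4 it was the kinase-like STK40 (0.035), for ETV5 DERL1 (0.029), and for SPRY4 RRP1 (0.048). Among the members, SPRY2 and SPRED1 were each other's nearest (0.13), as were ETV4 and ETV5 (0.11), SPRY4 and SPRED2 (0.10) and DUSP6 and PHLDA1 (0.098). The 8 libraries hold only 4 conditions, so a small distance says little beyond the shared group means.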

How the data were processed

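The authors deposited whole-number read counts per gene symbol for each library, and the submitters' processing notes name HTSeq, TopHat2 2.0.8b, bcl2fastq and the build hg19. The sources used here state neither strand setting nor annotation. Counter summary entries were removed; reads outside genes were 10.7% to 12.8% and ambiguous reads 0.811% to 0.861% of uniquely aligned reads. No sample column was left unused. Counts of duplicates gave a chi-square of 3.05 to 4.30 per degree of freedom, above sampling noise, and duplicates were kept as separate samples. Counts were analysed with edgeR 4.0.16 in R 4.3.3. filterByExpr kept 13498 of 23228 genes, libraries were scaled by TMM, and 1 quasi-likelihood model with 4 group means was fitted to all 8 libraries (4 residual degrees of freedom, prior 30.1). Knockout was compared with control at each treatment, LY500307 with vehicle in each population, and the interaction was tested (glmQLFTest, two-sided, Benjamini-Hochberg over all genes tested at 0.05). Intervals are at the 95% level; floors cover counting error only. Gene positions, lengths and arms came from GENCODE release 44 on GRCh37, the assembly of hg19, matched by symbol for 19137 genes and by RefSeq synonym for 2175, with 1916 unmatched. Arm medians used the 41 arms with at least 20 tested genes, and were removed as offsets, either as each group's median against vehicle-treated control cells or, in an alternative chosen after seeing the data, as each comparison's own median. Patterns were compared on log2(CPM + 0.5) among genes whose mean was 5 CPM or more. All 10 genes were named in each comparison, and up to 3 genes of each pathway list could be, by smallest p among those called. A single called gene could be named too, and not every such gene is described. A planned choice by highest mean CPM, if fewer than 2 were called, was not carried out. A gene named in 1 comparison may have its values given in others, KDM1A is named as a check of the labels, and uncharacterised, small and antisense RNAs were skipped in the search for like patterns. The members and lists were chosen with earlier results of these data known. Alternatives were DESeq2 1.42.0, its size factors, library totals, no count filter, a replicate block, arm medians removed, the 4 compared libraries alone, and leaving out each library. On simulated counts for knockout against control with vehicle (13301 genes), 50 genes were changed at each fold size. Of these, 34 were found at 1.25-fold, 48 at 1.5-fold and all 50 at 2-fold and at 4-fold, with 15 false calls. Far fewer genes were changed than the 64.0% called in the data, so these rates do not carry over directly.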

Additional observations from a re-analysis of the deposited data

Results flagged for a closer look

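ETV1, an ETS factor of the same subfamily as ETV4 and ETV5 and the only pathway list gene to pass in the interaction, responded differently to LY500307 in the 2 populations. Its interaction was -0.36 (edgeR adjusted p = 0.0086). It stood at 123 and 112 CPM with vehicle and at 128 and 123 CPM with LY500307 in control libraries, and at 102 and 102 CPM with vehicle and at 87.1 and 82.8 CPM with LY500307 in knockout libraries. The call was lost without vehicle-treated control replicate 2 (-0.30, adjusted p = 0.0835) or LY500307-treated control replicate 1 (-0.33, adjusted p = 0.0687). It was named after its value was seen, and the cause was not tested.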

How the results depend on the processing

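The titles number replicates 1 and 2 in each group, but the differences between the replicates of 2 groups correlated by only 0.041 to 0.11 over genes, and the numbers were not taken to pair samples. With a replicate block, 4 genes of the set were lower with LY500307 in knockout cells (SPRED1 and ETV4 were added) and 2 passed in the interaction (SPRY2 at 0.23 and DUSP6 at -0.21), where 643 of all genes passed. With the block 6 passed for LY500307 in control cells (DUSP5 was added), and 9 and 8 for knockout against control with vehicle and with LY500307. With no filter on low counts 350 genes passed in the interaction, against 218. With library totals 3 genes of the set passed for LY500307 in control cells, 2 higher and 1 lower, and values that had not passed changed sign (SPRED1 to 0.065, ETV4 to 0.0049 and ETV5 to 0.031), as did SPRY4 in knockout against control with vehicle (0.010). With each group's arm medians against vehicle-treated control cells removed, the sign changed for SPRY4 with vehicle (0.10), DUSP5 in knockout against control with LY500307 (-0.028) and ETV5 with LY500307 in knockout cells (-0.0054), none of which passed. With each comparison's own arm medians removed, an alternative chosen after seeing the data, SPRY4 stood at 0.10 and DUSP5 at -0.031, and ETV5 kept its sign (0.023).

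Leaving out 1 library at a time, 6 to 9 and 7 to 8 genes of the set passed for knockout against control with vehicle and LY500307. For LY500307 in control cells 2 to 3 passed (2160 to 2326 of all genes, against 3550) and in knockout cells 0 to 3 (1422 to 2257 of all genes, against 2759). In the interaction 95 to 262 of all genes passed. Signs changed for values that had not passed: SPRY4 in knockout against control with vehicle (-0.084 to 0.0072), DUSP5 (-0.039 to 0.051) and DUSP6 (-0.14 to 0.00020) in the same with LY500307, SPRED1 (-0.065 to 0.043) and PHLDA1 (-0.039 to 0.087) with LY500307 in control cells, DUSP5 with LY500307 in knockout cells (-0.0085 to 0.073), and PHLDA1 (-0.029 to 0.10) and SPRED2 (-0.025 to 0.045) in the interaction. The cause of these changes was not tested, and each such fit also has a smaller number of libraries. A library left alone in its group is assumed to vary like the others. The 10 genes had 1818 to 22172 counts per group.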
